A study of Rattus norvegicus with 24 samples.

Results

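The Toll-like receptors other than Tlr4 were followed in the peripheral blood of rats by 9 genes, Tlr1, Tlr2, Tlr3, Tlr5, Tlr6, Tlr7, Tlr8, Tlr9 and Tlr10. A gene was taken as measured when a probe that is not a control carried its name in the array files. Of the 9 genes, 8 had such a probe, and no probe was named Tlr1. The 8 genes had 9 probes on 17 spots, out of 25885 names of genes or transcripts and 30367 probes on 58717 spots of the whole array, because Tlr3 had 2 probes. Only the probes of Tlr2 and Tlr6 passed the filter on dim probes, so tests between groups exist for these 2 genes alone.

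Blood RNA of single rats was hybridized to 24 two-color arrays, 4 for each of 6 groups. All animals were male Sprague-Dawley rats, 8 weeks old, kept for 6 weeks on a semi-synthetic diet. Rats of the C groups received saline, and rats of the LPS groups received lipopolysaccharide of E. coli at 10 mg/kg into the tail vein to induce enteritis. G0 was the diet without beta-glucan, G1 the diet with oat beta-glucan of high molecular weight, and G2 the diet with oat beta-glucan of low molecular weight. The 6 groups are C-G0, C-G1 and C-G2 with saline and LPS-G0, LPS-G1 and LPS-G2 with lipopolysaccharide. Injections were repeated during the feeding. Each array compared one rat with a common reference RNA, pooled from all rats by the sample labels and from rats not used as samples by the published methods.

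Toll-like receptors recognize molecules of microbes. At the cell surface, Tlr2 pairs with Tlr1 or Tlr6 to bind bacterial lipopeptides, Tlr5 binds flagellin, and Tlr4 responds to lipopolysaccharide, the agent injected here. Tlr3 binds double-stranded RNA, Tlr7 and Tlr8 bind single-stranded RNA, and Tlr9 binds unmethylated CpG DNA, all in endosomes. Most of these receptors signal through the adaptor Myd88, while Tlr3 uses Ticam1. In blood, Tlr2 and Tlr6 are known above all from monocytes and neutrophils, and Tlr7 and Tlr9 from plasmacytoid dendritic cells and B cells. Beta-glucan itself is bound by dectin-1, a receptor known to cooperate with Tlr2.

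The probes of Tlr2 and Tlr6 are shown because every difference between groups below was read with them. The Tlr2 probe A_43_P19763 lies at chr2:175608160-175608217 on the minus strand of rn4, and the Tlr6 probe A_44_P200968 at chr14:46100547-46100606 on the plus strand. In their transcripts they start at base 2366 and base 2559 by the array's own annotation, which does not give exons. Capitals mark the longest run that the 2 probes share, 10 bases of 60.
Tlr2 probe: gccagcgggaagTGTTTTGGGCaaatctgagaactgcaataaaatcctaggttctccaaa
Tlr6 probe: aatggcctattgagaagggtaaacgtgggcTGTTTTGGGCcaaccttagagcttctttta
At the best ungapped position, with at least 40 bases overlapping, they matched at 27 of 42 bases, which is 64.3%. Each probe held 45% G and C. The transcript of Tlr1, a close relative of Tlr6, was not compared with the Tlr6 probe here.

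The 250 bases before the start of each gene are shown because Tlr2 and Tlr6 moved together across the arrays. They are RefSeq sequences of the GRCr8 assembly, at chr2:171504558-171504807 on the minus strand for Tlr2 and at chr14:43715559-43715808 on the plus strand for Tlr6. Capitals mark matches on either strand to the consensus of NF-kB, the main transcription factor below these receptors, to GAGGAA, a core motif of the myeloid factor PU.1, and to the TATA box TATAAA.
Tlr2 upstream: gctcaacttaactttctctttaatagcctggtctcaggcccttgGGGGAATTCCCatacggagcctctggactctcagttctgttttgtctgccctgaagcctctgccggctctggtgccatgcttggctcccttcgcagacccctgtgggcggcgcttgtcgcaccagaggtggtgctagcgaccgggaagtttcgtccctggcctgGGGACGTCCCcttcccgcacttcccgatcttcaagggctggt
Tlr6 upstream: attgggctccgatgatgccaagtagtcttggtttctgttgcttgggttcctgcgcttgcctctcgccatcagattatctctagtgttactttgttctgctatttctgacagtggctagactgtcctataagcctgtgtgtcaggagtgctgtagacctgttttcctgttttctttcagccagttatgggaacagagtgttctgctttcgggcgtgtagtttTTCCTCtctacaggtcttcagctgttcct
The Tlr2 stretch held the NF-kB consensus at GGGAATTCCC, where a second match overlaps the first, and at GGGACGTCCC. This consensus was present in 6.33% of 33469 rat promoters of the same length. The Tlr6 stretch held the PU.1 core as TTCCTC on the opposite strand, a motif present in 23.3% of the promoters. TATAAA, present in 12.9%, was in neither stretch. These matches describe letters only, and the motifs were chosen with both sequences in view.

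Each array had between 7786 and 15385 probes well above background in Cy3, with a median of 11152.5, and the arrays lay on 3 slides of 8 that each held all 6 groups. The median numbers of such probes were 11202, 10561.5 and 13532 on slides 1, 2 and 3. The sample labels give the rat RNA as Cy3 and the reference as Cy5, whereas the published methods give the reverse. Within groups, the signal varied more in Cy3 than in Cy5 for 94.1% of 7074 probes, with a median SD of 0.35 against 0.19 log2 units, and the ratios below are therefore Cy3 over Cy5, opposite in dye to the published methods. The lowest correlation between any pair of arrays over all spots was -0.161, and over the 10708 tested probes it was -0.54. For LPS-G0 replicates 3 and 4 the titles say LPS and another label says control; they were kept in LPS-G0. Of the defining markers of blood, none of the 7 erythroid genes with a probe was dim on all 24 arrays.

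Detection separated the receptors into a pair that was measured on every array and a remainder that was mostly dim. Tlr2 and Tlr6 were well above background in Cy3 on 24 of 24 arrays and in the reference on 24 of 24. Tlr5, the flagellin receptor, was well above background on 5 of 24 arrays, and the brighter probe of Tlr3 and the probe of Tlr10 on 1 of 24 each. Tlr7, Tlr8 and Tlr9 were not well above background on any of the 24 arrays, and neither was the dimmer probe of Tlr3. Less RNA per cell and fewer cells that carry a receptor cannot be told apart in whole blood. Detection could also differ between probes of the same gene. Tlr13, a receptor outside the list followed here, was detected on 24 of 24 arrays by its brighter probe but on only 3 by the other. A dim probe therefore does not by itself show that a receptor is scarce in blood. The part of the probes in the dim signals was not tested.

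**Figure D1:**
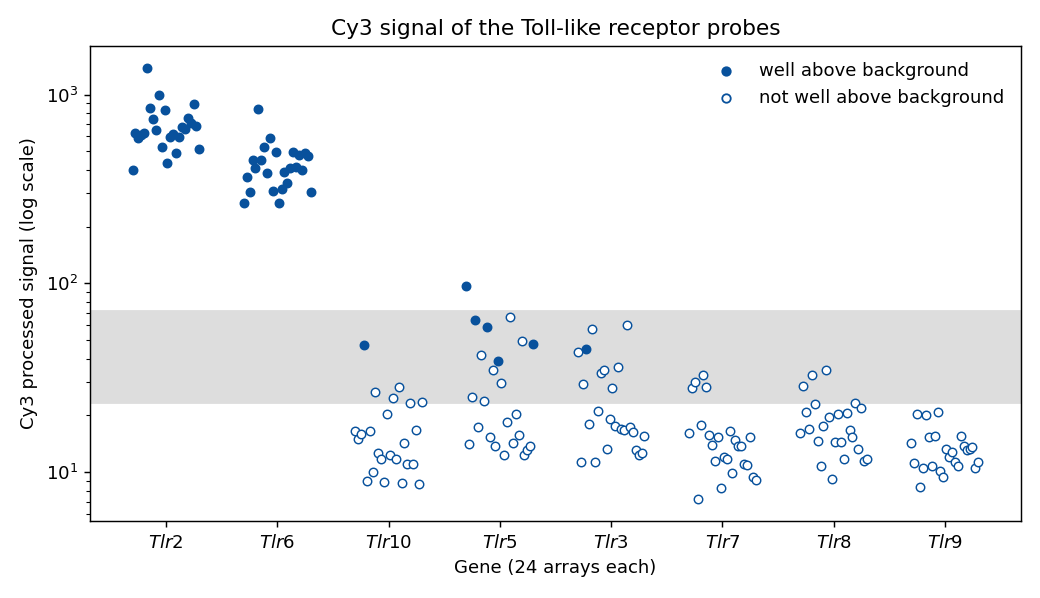
Processed Cy3 signal (log scale) of the brightest probe of each Toll-like receptor gene on each of the 24 arrays; filled points were well above background, and the grey band spans the lowest signal well above background over the arrays, 23.3 to 71.3. All points of Tlr2 and Tlr6 are filled and lie above the band, and the other genes have 0 to 5 filled points; signals of different probes are not comparable as levels.

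The 5 arrays on which Tlr5 was well above background were C-G0 replicates 1 and 4, C-G1 replicate 4, C-G2 replicate 4 and LPS-G2 replicate 4. Their Cy3 signals were 97.1, 64.1, 59.1, 38.7 and 48. Of these 5 arrays 4 lay on slide 3, the slide with the highest median number of detected probes, and the part of the slide in this was not tested. C-G0 replicate 4, the array with the most detected probes of all, was the only one with Tlr3 above background, at 45.1, and the only one with Tlr10, at 47.2.

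Tlr7, Tlr8 and Tlr9 were thus below that mark throughout. Across the 24 arrays the Tlr7 signal ran from 7.19 to 32.9 with a median of 13.8, that of Tlr8 from 9.22 to 34.8 with a median of 16.8, and that of Tlr9 from 8.35 to 20.9 with a median of 12.9. In the pooled reference, Tlr7 was well above background on 8 arrays, Tlr8 on 11 and Tlr9 on 0. Tlr5 was above background in the reference on 19 of 24 arrays, more often than in the rats' own channel. Reference channels detected more probes in general, between 14400 and 22449 per array.

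A laxer flag, which asks only for a positive signal that differs significantly from the local background, gave higher counts for the dim receptors. It was set on 21 of 24 arrays for Tlr5, 20 for the brighter probe of Tlr3, 13 for Tlr7, 13 for Tlr10, 9 for Tlr8 and 4 for Tlr9. For Tlr7 it was set on 3 of 4 arrays in C-G0, 4 of 4 in C-G1 and 3 of 4 in LPS-G1, and on 1 of 4 in each of C-G2, LPS-G0 and LPS-G2. A fold against the lowest detectable signal was computed only where 1 of the 2 groups compared had arrays well above background. These folds lay from 0.435 to 0.925, all below 1, and the other comparisons of dim receptors had none. No fold change is therefore given for Tlr3, Tlr5, Tlr7, Tlr8, Tlr9 or Tlr10. Marker genes of the cells known for Tlr7 and Tlr9 were partly dim as well. Of the 8 plasmacytoid dendritic cell markers, Ly6d and Cox6a2 were not well above background on any array, and the summed Cy3 signal of the list ranged from 1440, in a C-G0 rat, to 5270, in a C-G1 rat. B cell markers reached summed signals from 3490 to 9260, with none of the 7 genes that had a probe dim on all arrays. Summed Cy3 signals here and below are not scaled between arrays and weigh bright genes most.

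Tlr2, the shared partner of the lipopeptide receptors, had the lowest mean log2 ratio in the 2 groups on the diet without beta-glucan. The log2 ratios of the single rats were -0.58, -0.15, 0.11 and -0.07 in C-G0 and -0.53, -0.18, -0.03 and -0.22 in LPS-G0. On the G1 diet they were 0.1, 0.13, 0.23 and 0.42 in C-G1 and -0.12, 0.05, 0.03 and 0.2 in LPS-G1. On the G2 diet they were 0.19, 0.46, -0.17 and 0.39 in C-G2 and 0.37, 0.42, 0.43 and 0.13 in LPS-G2. Every rat of LPS-G2 thus lay above every rat of LPS-G0, and the ranges of the other pairs of groups compared here overlapped. The group means ± SD (n = 4) were -0.17 ± 0.29 in C-G0, 0.22 ± 0.14 in C-G1, 0.22 ± 0.28 in C-G2. They were -0.24 ± 0.21 in LPS-G0, 0.04 ± 0.13 in LPS-G1, and 0.34 ± 0.14 for LPS-G2.

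Tlr6, which pairs with Tlr2 for diacylated lipopeptides, also had its lowest means in both G0 groups. The log2 ratios were -0.62, -0.15, -0.22 and 0.29 in C-G0 and -0.39, -0.26, -0.04 and -0.09 in LPS-G0. They were 0.11, 0.18, -0.01 and 0.45 in C-G1 and 0.24, 0.12, -0.14 and 0.23 in LPS-G1. They were 0.06, 0.33, -0.26 and 0.3 in C-G2 and 0.31, 0.24, 0.37 and -0.12 in LPS-G2. C-G0 replicate 4, at 0.29, lay above 3 rats of C-G1, and 1 rat each of LPS-G1 and LPS-G2 lay below 2 rats of LPS-G0, so that no pair of groups compared here separated fully. The means were -0.18 ± 0.37 in C-G0, 0.18 ± 0.19 in C-G1, 0.11 ± 0.27 in C-G2. After LPS they were -0.19 ± 0.16 on G0, 0.11 ± 0.18 on G1 and 0.2 ± 0.22 on G2 (SD, n = 4).

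**Figure D2:**
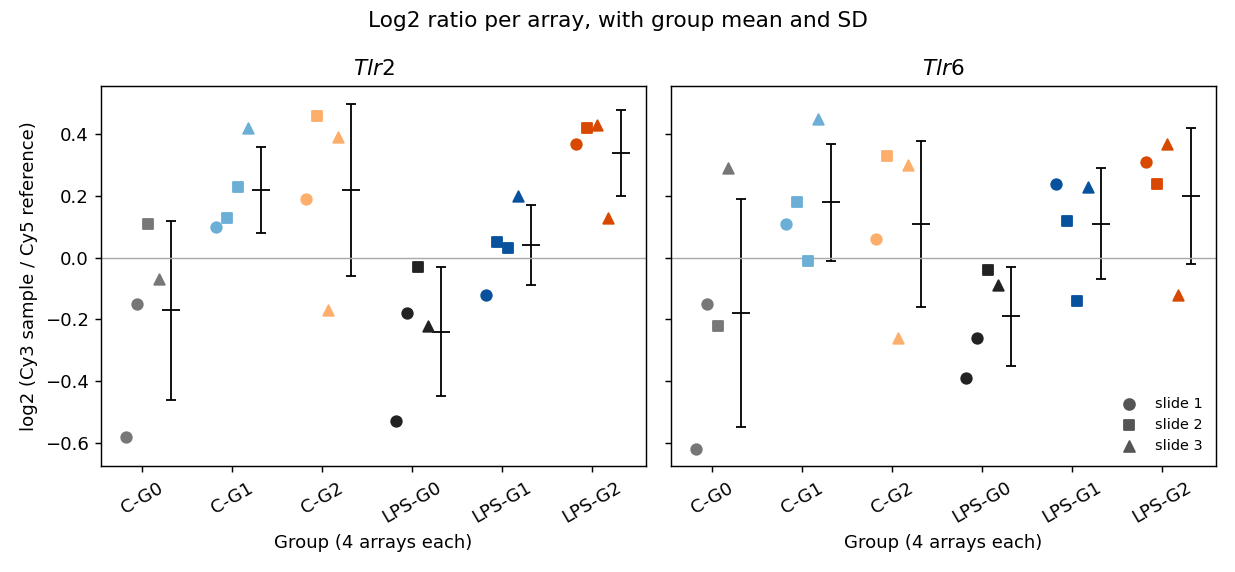
Log2 ratio of Cy3 (rat) over Cy5 (reference) of Tlr2 (left) and Tlr6 (right) for each of the 4 arrays of each group, with the symbol giving the slide and the black bar the group mean and SD. The G0 groups have the lowest means, -0.17 and -0.24 for Tlr2 and -0.18 and -0.19 for Tlr6, and only LPS-G2 and LPS-G0 of Tlr2 do not overlap among the pairs compared.

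LPS itself was followed by no detected change of Tlr2 or Tlr6. In LPS-G0 vs. C-G0, Tlr2 differed by -0.07 on the log2 scale (SE 0.16, 95% interval -0.4 to 0.27, adjusted p = 0.878) and Tlr6 by -0.02 (SE 0.18, interval -0.4 to 0.37, adjusted p = 0.975). None of the 2 tested receptors passed the threshold, a Benjamini-Hochberg adjusted p below 0.05 in limma, against 0.0097% of all 10313 probes, and none had an unadjusted p below 0.05, against 15.2%. The exact permutation test over the 70 arrangements of 4 against 4 arrays gave p = 0.686 for Tlr2 and p = 0.943 for Tlr6. On the G1 diet, LPS-G1 vs. C-G1 gave -0.18 (SE 0.16) for Tlr2 and -0.07 (SE 0.18) for Tlr6, and neither was among the 0.00934% of 10708 probes called or the 2.81% with an unadjusted p below 0.05. On the G2 diet, LPS-G2 vs. C-G2 gave 0.12 (SE 0.16) and 0.09 (SE 0.18), with 0% of the probes called and 1.09% at an unadjusted p below 0.05, neither receptor among them.

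Over the 3 diets together, the mean difference of LPS from saline was -0.04 for Tlr2, with a 95% interval of -0.24 to 0.15, and 0 for Tlr6, with an interval of -0.22 to 0.22. Neither was called, against 0.0187% of the probes, or had an unadjusted p below 0.05, against 9.61%. The LPS difference on G1 minus that on G0 was -0.12 (SE 0.23, adjusted p = 0.999) for Tlr2 and -0.05 (SE 0.26, adjusted p = 0.999) for Tlr6, with 0% of probes called and 3.01% at an unadjusted p below 0.05. The LPS difference on G2 minus that on G0 was 0.19 (SE 0.23, adjusted p = 0.874) and 0.11 (SE 0.26, adjusted p = 0.927), again with 0% called and 5.57% at an unadjusted p below 0.05. Neither receptor was among these. The 95% intervals of the differences between diets were -0.59 to 0.36 and -0.29 to 0.66 for Tlr2 on G1 and G2, and -0.58 to 0.48 and -0.42 to 0.64 for Tlr6.

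Low-molecular-weight beta-glucan in LPS-treated rats gave the largest Tlr2 difference among the comparisons of single groups. Tlr2 was 1.49-fold higher in LPS-G2 than in LPS-G0, with a 95% interval of 1.18 to 1.88, which is 0.58 on the log2 scale (SE 0.16). The exact permutation test gave p = 0.0286, the smallest value that 4 against 4 arrays allow. In limma the unadjusted p was 0.00226, rank 28 of 10313 probes, and the adjusted p was 0.597, so Tlr2 was not called. No probe of the array was called in this comparison, 0% in either direction, while 2.62% of the probes were higher at an unadjusted p below 0.05. A full separation of the groups with LPS-G2 higher, as for Tlr2, was found for 2.81% of all probes.

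Tlr6 was 1.31-fold higher in LPS-G2 than in LPS-G0, with an interval of 1.01 to 1.71, an unadjusted p of 0.0456 and an adjusted p of 0.597 in limma. Its exact permutation p was 0.0857. Within slides 1, 2 and 3, the LPS-G2 minus LPS-G0 difference was 0.72, 0.45 and 0.5 for Tlr2 and 0.64, 0.27 and 0.21 for Tlr6 on the log2 scale. The sign was therefore the same on each slide, each value resting on 2 or 3 arrays. In the Cy5 reference channel alone the same contrast was -0.05 for Tlr2 and 0.09 for Tlr6.

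Neutrophil markers moved with this contrast. Of 6 tested neutrophil genes, 5 were higher in LPS-G2 at an unadjusted p below 0.05, with a list median of 0.68 against -0.02 over all probes and none called after adjustment, while 2.62% of all probes were higher at that p. The 5 genes were S100a8 and S100a9, the calprotectin subunits (0.92 and 0.71), Csf3r, the receptor of granulocyte colony-stimulating factor (0.59), the antimicrobial peptide Camp (0.65) and the ficolin Fcnb (0.78). The summed Cy3 signal of the neutrophil list was 13200 to 38300 in LPS-G2 and 11400 to 19600 in LPS-G0, and only Ltf was dim on all arrays. Monocyte markers had a median of 0, with 1 of 5 tested genes higher at an unadjusted p below 0.05, the lysozyme gene Lyz2 (0.87). The 6 tested markers of NK cells all had negative values, with a list median of -0.42. Of these, 1 was lower at an unadjusted p below 0.05, the receptor Klrk1 (-0.3), while 5.61% of all probes were lower at that p. The summed Cy3 signal of the NK list was 5250 to 7530 in LPS-G2 and 5390 to 10400 in LPS-G0. In LPS-G0 vs. C-G0 both lists had the opposite sign, with no gene of them called. There the neutrophil genes ranged from -0.73 (S100a9) to -0.09 (Fcnb), and the NK genes from 0.24 (Klrk1) to 1.35 (Gzmb). The median over all probes was 0.03. The LPS-G2 differences are thus read against an LPS-G0 group that itself differed from C-G0 in these markers. How much of them this accounts for was not tested. The part of these cells in the Tlr2 and Tlr6 values was not tested.

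High-molecular-weight beta-glucan in LPS-treated rats gave smaller values in a comparison where far more of the array moved. In LPS-G1 vs. LPS-G0, Tlr2 was 1.21-fold higher (interval 0.96 to 1.53, adjusted p = 0.269) and Tlr6 1.24-fold higher (interval 0.948 to 1.62, adjusted p = 0.281). Neither was called, against 8.93% of all probes in either direction and 0.543% of probes that were higher, or had an unadjusted p below 0.05, against 26.9%. Exact permutation tests gave p = 0.0571 for Tlr2 and p = 0.0857 for Tlr6. With arrays weighted by their quality, Tlr2 alone passed, with a log2 difference of 0.37 and an adjusted p of 0.0429 in limma.

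In rats without LPS the 2 diets gave Tlr2 differences of the same size. Tlr2 was 1.31-fold higher in C-G1 than in C-G0 (log2 0.39, SE 0.16, adjusted p = 0.143) and 1.31-fold higher in C-G2 than in C-G0 (log2 0.39, SE 0.16, adjusted p = 0.313). Tlr6 was 1.28-fold higher in C-G1 (adjusted p = 0.191) and 1.22-fold higher in C-G2 (adjusted p = 0.514). No receptor was called in either comparison, against 0.028% of the 10708 probes in each. At an unadjusted p below 0.05, Tlr2 was higher in both and Tlr6 in neither, against 12.1% of the probes higher in C-G1 and 5.41% in C-G2. The exact permutation test gave p = 0.0571 and p = 0.143 for Tlr2 and p = 0.143 and p = 0.286 for Tlr6. Without C-G0 replicate 1, the C-G1 value was 0.26 for Tlr2 and 0.21 for Tlr6, and the C-G2 value was 0.25 for Tlr2 and 0.14 for Tlr6 on the log2 scale. Without C-G0 replicate 4, the C-G2 value of Tlr6 was 0.44. Tlr6 changed sign on slide 3, where C-G2 minus C-G0 was -0.27, while it was 0.45 on slide 1 and 0.55 on slide 2.

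**Figure D3:**
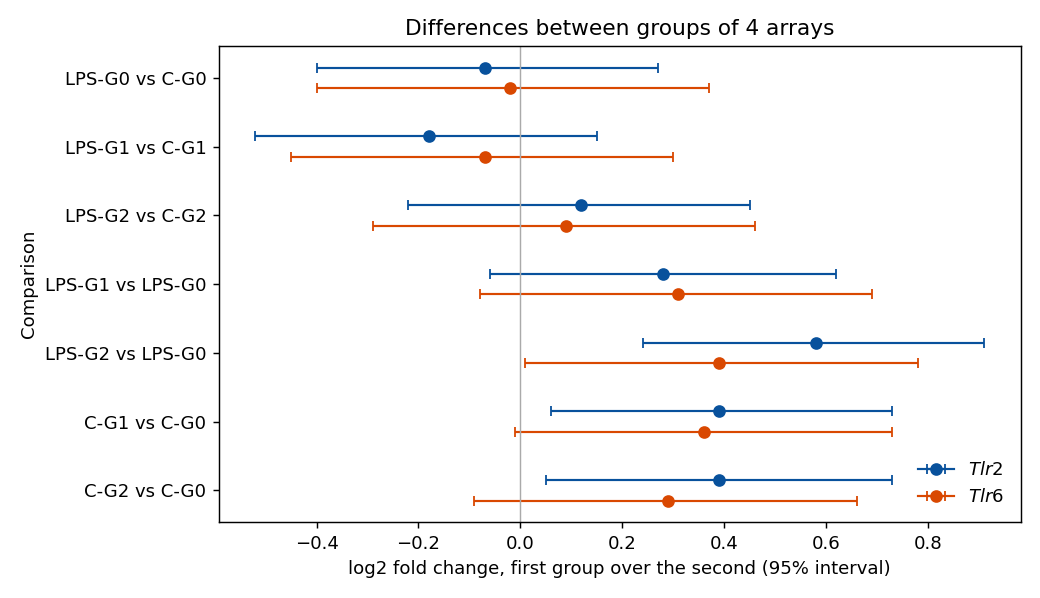
Log2 fold change of Tlr2 and Tlr6 with its 95% interval from limma for 7 comparisons of 2 groups, 4 arrays each. Values of LPS against saline within a diet lie from -0.18 to 0.12, and values of a beta-glucan diet against G0 from 0.28 to 0.58; no point passed the adjusted threshold.

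Because both genes were higher on the beta-glucan diets with and without LPS, each diet was also set against G0 over saline and LPS together, a contrast chosen after these values were seen and so no independent support. On G1, Tlr2 was 1.26-fold higher (log2 0.34, SE 0.11, interval 0.1 to 0.57), and its adjusted p of 0.0368 passed the threshold. Tlr6 was also 1.26-fold higher (log2 0.33, SE 0.13, interval 0.07 to 0.6) with an adjusted p of 0.0535, which became 0.0462 with array weights. In this contrast 27.9% of all probes were called, and 9.7% were called higher, so the call of 1 of 2 tested receptors is read against that share. On G2, Tlr2 was 1.4-fold higher (log2 0.48, SE 0.11, adjusted p = 0.167) and Tlr6 1.26-fold higher (log2 0.34, SE 0.13, adjusted p = 0.296), with 0.00934% of probes called and no receptor among them. Both receptors were higher on G2 at an unadjusted p below 0.05, as were 6.29% of the probes. Permutation within saline and LPS over 4900 arrangements gave exact p = 0.00204 and 0.00245 for Tlr2 on G1 and G2, and 0.0139 and 0.0253 for Tlr6, with no adjustment for the choice of contrast.

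The call of Tlr2 on G1 was not stable. With the slide as a block its log2 difference was 0.28 with an adjusted p of 0.0784, and within slides 1, 2 and 3 it was 0.35, 0.07 and 0.45. When both LPS-G0 arrays with conflicting labels were left out, the adjusted p was 0.0503. Leaving out single arrays moved it between 0.0277 and 0.09, and the call was lost without C-G0 replicate 1, without LPS-G0 replicate 1, 2 or 4, without C-G1 replicate 2, 3 or 4, and without LPS-G1 replicate 2, 3 or 4. Tlr6 was called on G1 without LPS-G0 replicate 3 (adjusted p = 0.0489), LPS-G1 replicate 3 (0.0453) or C-G0 replicate 4 (0.0171). On G2, Tlr2 was called without C-G0 replicate 4, with an adjusted p of 0.0368. Within the slides, the G2 value was 0.64, 0.4 and 0.34 for Tlr2 and 0.54, 0.41 and -0.03 for Tlr6.

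Markers of blood cells moved in the same contrasts. On G1 over saline and LPS, 2 of 5 tested monocyte markers were called higher, the Fc receptor Fcgr3a (0.77) and Lyz2 (0.7), and the erythroid markers Slc4a1, Epb42, Ahsp and Klf1 were called lower, with values from -0.97 to -0.61. These counts stand against 27.9% of all probes called, 9.7% higher and 18.2% lower. The monocyte markers Cd68 (0.38), Csf1r (0.07) and Cx3cr1 (-0.08) were not called, so the list did not move as a whole. Without LPS, Fcgr3a had 1.45 in C-G1 vs. C-G0 (SE 0.36, adjusted p = 0.104). Its LPS difference on G1 minus that on G0 was -1.35 (SE 0.51, adjusted p = 0.999), against 0.03 (SE 0.43) for Lyz2. The estimated diet difference of Fcgr3a was thus smaller in LPS rats than in saline rats, but this change was not called. In LPS-G0 vs. C-G0, Fcgr3a had 1.09 (SE 0.36, adjusted p = 0.219). On G1 over saline and LPS, the B cell marker Cd79b, a part of the B cell receptor, was called higher (0.58, adjusted p = 0.044). It was 1 of 4 tested B cell genes, and Pax5 of that list had -0.49 (adjusted p = 0.0512). Klrk1 was called lower (-0.36, adjusted p = 0.0256) as 1 of 6 tested NK cell genes. Of these 6 genes, 5 had positive values, and the NK list median was 0.23. No neutrophil marker of 6 was called on G1. On G2 over saline and LPS no marker of these lists was called. At an unadjusted p below 0.05, 3 of 6 neutrophil markers (list median 0.43) and 2 of 5 monocyte markers (median 0.5) were higher. Of the B cell genes, 1 of 4 was higher at that p (median 0.02), against 6.29% of all probes. The G2 medians of the NK and erythroid lists were 0 and -0.23. The summed Cy3 signal of the monocyte list, in which only Cd163 was dim throughout, was 35300 to 84900 in C-G0, 64500 to 121000 in C-G1, 39600 to 56200 in LPS-G0 and 64500 to 76300 in LPS-G1. That of the erythroid list was 528000 to 1190000 in C-G0, 438000 to 637000 in C-G1, 614000 to 861000 in LPS-G0 and 562000 to 704000 in LPS-G1. In these groups the mean log2 ratio of the monocyte list was -1.08 to 0.14, -0.02 to 0.23, -0.39 to -0.09 and -0.17 to 0.25. For the erythroid list it was -0.17 to 0.3, -1.44 to -0.26, 0.16 to 0.22 and -0.68 to 0.03. The erythroid genes Alas2 (-0.08) and Hbb (0.12) were not called on G1 over saline and LPS. The part of these cells in the Tlr2 and Tlr6 values was not tested.

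Tlr2 and Tlr6 followed each other from rat to rat. Over the 24 arrays their log2 ratios correlated with Pearson's r = 0.821 (permutation p = 1e-05, the smallest that 100000 draws can give) and Spearman's rho = 0.779 (permutation p = 2e-05). For the 3 relations computed among Tlr2, Tlr6 and Tlr13, the adjusted values of this pair were 3e-05 and 6e-05. Without the 2 arrays farthest from the median of Tlr2, r was 0.7. Within slides 1, 2 and 3 (8 arrays each) it was 0.885, 0.699 and 0.762, and after removal of the group means it was 0.739. The Cy3 signals alone gave 0.889 and the Cy5 reference signals alone 0.724, so a correlation of these probes was also present in the channel that holds the same RNA on each array.

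**Figure D4:**
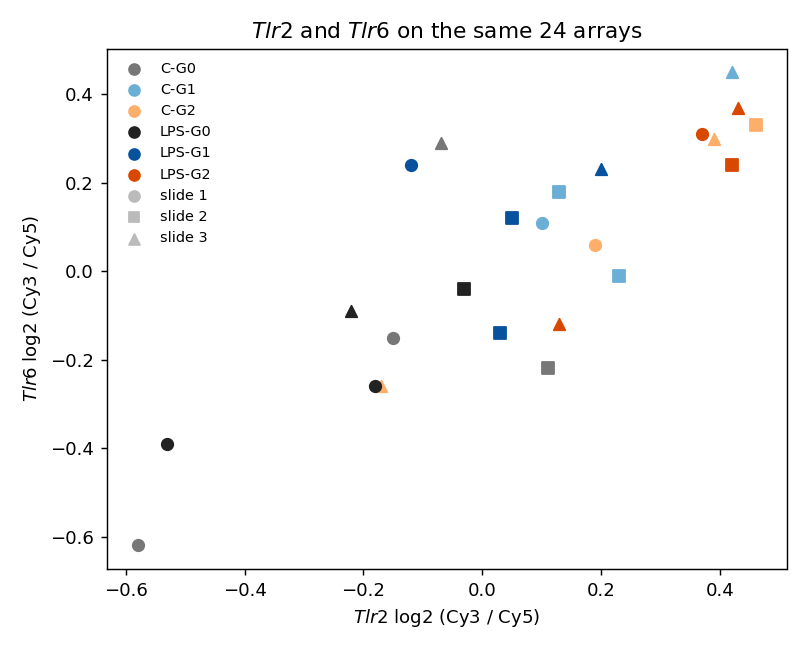
Log2 ratio of Tlr6 against that of Tlr2 on each of the 24 arrays, with color for the group and symbol for the slide. Pearson's r is 0.821, and the lowest array on both axes is C-G0 replicate 1, at -0.58 for Tlr2 and -0.62 for Tlr6.

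The genes whose log2 ratio was most like that of the receptors were largely the same for both. Among 4411 named genes well above background on all 24 arrays, Tlr2 was closest to Igsf6 (r = 0.864), an immunoglobulin superfamily gene, to Fcgr1a (r = 0.848), the high-affinity receptor of IgG on monocytes, and to Rnaset2 (r = 0.848), a ribonuclease. Tlr6 stood at rank 11 for Tlr2. Tlr6 was closest to Igsf6 (r = 0.847), then to Fcgr1a, and then to Tlr2 (r = 0.821). The group means of Fcgr1a were -0.42 in C-G0, 0.03 in C-G1 and 0.06 in C-G2, and after LPS they were -0.57 on G0, -0.09 on G1 and 0.04 on G2, with both G0 groups lowest as for the receptors. These values describe the same 24 arrays and share the reference and the slides.

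The genes that work with the receptors were read from lists of trafficking and processing factors, accessory receptors, adaptors and kinases, transcription factors and inhibitors. In LPS-G1 vs. LPS-G0, 1 of 6 tested transcription factors was called, Irf7, the interferon regulatory factor used by Tlr7 and Tlr9, which fell by 1.14 on the log2 scale (SE 0.29, adjusted p = 0.0289), in a comparison with 8.93% of all probes called and 8.39% called lower. This call was lost in 12 of 18 alternatives, with adjusted p up to 0.215. It was lost without LPS-G0 replicate 1, 2 or 4 and without LPS-G1 replicate 2, 3 or 4, with adjusted p from 0.0736 to 0.104. No gene was called among 9 trafficking factors, 1 accessory receptor, 9 adaptors and kinases and 5 inhibitors. The list medians were 0.2 for trafficking, -0.12 for the accessory receptor Cd36, 0.35 for adaptors and kinases, 0.28 for transcription factors and 0.21 for inhibitors, against 0.06 over all probes. Irf7 was also higher in LPS-G0 than in C-G0, by 0.7 (SE 0.29, adjusted p = 0.277). In rats without LPS, its value in C-G1 vs. C-G0 was -0.03 (SE 0.49, adjusted p = 0.965).

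In LPS-G2 vs. LPS-G0 no gene of these lists was called, and the medians were 0.24 for trafficking, 0.27 for the accessory receptor Cd36, 0.11 for adaptors and kinases, 0.23 for transcription factors and 0.23 for inhibitors, against -0.02 over all probes. The 6 tested transcription factors ranged from -0.89 to 0.55. At an unadjusted p below 0.05, 1 of them was higher and 1 lower, against 2.62% and 5.61% of all probes. Of single genes, Unc93b1, the chaperone that carries endosomal receptors out of the endoplasmic reticulum, had 0.6 (SE 0.26, adjusted p = 0.597), and Myd88 had 0.4 (SE 0.21, adjusted p = 0.597). In LPS-G0 vs. C-G0 no gene of the lists was called, and the medians lay from -0.51 for Cd36 to 0.08 for the inhibitors, against 0.03 over all probes.

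On G1 over saline and LPS, 5 pathway genes were called higher and 1 lower. The genes tested were 9 trafficking factors, 1 accessory receptor, 9 adaptors and kinases, 7 transcription factors and 5 inhibitors. In this contrast 27.9% of all probes were called, 9.7% higher and 18.2% lower, and the pathway counts are read against those shares. Unc93b1 rose by 0.54 (SE 0.17, adjusted p = 0.0266) as 1 of 9 trafficking factors. Myd88 rose by 0.46 (SE 0.16, adjusted p = 0.0428), and Irak1, the kinase that Myd88 recruits, fell by 0.47 (SE 0.17, adjusted p = 0.0465), among 9 adaptors and kinases. Irf5, a transcription factor that Myd88 also activates, rose by 0.46 (SE 0.14, adjusted p = 0.026) as 1 of 7. The inhibitors Irak3, which blocks the release of the Irak kinases, and Tollip rose by 0.57 (SE 0.15, adjusted p = 0.0154) and 0.31 (SE 0.1, adjusted p = 0.0347), 2 of 5. Cd36, the only accessory receptor tested, had -0.5 (adjusted p = 0.113). Over the 24 alternatives these 6 genes kept their sign, and the calls were lost in 6 for Unc93b1, 14 for Myd88, 15 for Irak1, 5 for Irf5, 2 for Irak3 and 11 for Tollip. Leaving out single arrays kept the call of Irak3, with adjusted p up to 0.0404. It lost that of Unc93b1 without C-G1 replicate 2 or LPS-G1 replicate 4 (adjusted p up to 0.0526) and that of Irf5 without LPS-G1 replicate 4 or without replicate 1 of C-G0 or of LPS-G0 (up to 0.0542). The call of Tollip was lost without C-G0 replicate 1 or 3, LPS-G0 replicate 1 or 4, C-G1 replicate 1 or 2, or LPS-G1 replicate 4 (up to 0.0787). Those of Myd88 and Irak1 were lost, with adjusted p up to 0.112 and 0.121, without C-G0 replicate 1 or 3, LPS-G0 replicate 1, 2 or 4, C-G1 replicate 2, or LPS-G1 replicate 2 or 4. That of Myd88 was also lost without C-G1 replicate 3 or LPS-G1 replicate 3, and that of Irak1 without LPS-G0 replicate 3 or C-G1 replicate 4. On G2 over saline and LPS none of these genes was called, and the list medians lay from -0.19 to 0.29. The same 6 genes kept their signs there. Both diet contrasts subtract the same G0 arrays, so these shared signs are no independent support. Unc93b1 had 0.49 (unadjusted p = 0.00818 in limma), Irf5 0.51 (0.0015), Irak3 0.39 (0.0137) and Tollip 0.29 (0.0102). Myd88 had 0.28 (0.101) and Irak1 -0.2 (0.257). Of all probes, 6.29% were higher at an unadjusted p below 0.05 in this contrast and 0.00934% were called.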

How the data were processed

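Per the file headers, the authors' Feature Extraction (10.10.1.1; 10.7.3.1 in the submitters' processing notes and methods) gave, as deposited, background-subtracted, Lowess-normalized intensities of Cy3 and Cy5 and their log10 ratio, Cy5 over Cy3. The deposited series matrix held the same log10 values, at 1511424 of 1511424 entries. Here the sign was turned and the ratio put on the log2 scale. Outlier spots (679 to 1133 per array) were left out and spots of a probe averaged. A probe entered the test when some group had it well above background in Cy3 on its 4 arrays. Tests were made with limma 3.58.1 in R 4.3.3 (package data.table, version 1.17.8), two-sided, Benjamini-Hochberg over all probes: 10313 in a fit of 16 arrays, without C-G1 and C-G2, for the comparisons of C-G0 and the LPS groups with LPS-G0, and 10708 in a fit of 24 arrays otherwise. A probe was called at adjusted p below 0.05 at any fold. The lead probe of a gene was the brightest in Cy3. The likest genes were the 3 of highest r; of a pathway list, genes called and up to 4 of the first tested may be named. Members, lists and tests were chosen with earlier results of these data known. The code was tested on simulated data. Alternatives were normexp with loess, no filter, blocks, Cy3 alone, array weights, a variance trend, the methods' ANOVA and Tukey test, and arrays left out. The number of arrays limits the precision. The value of 1 marker gene is not reported here.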

Additional observations from a re-analysis of the deposited data

How the results depend on the processing

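The counts of receptors called stayed at 0 in the comparisons between 2 groups, in LPS over the diets and in the differences of LPS between diets, under every alternative run, except that array weights gave 1 in LPS-G1 vs. LPS-G0. On G1 over saline and LPS the count of 1 became 0 without the filter, with the slide as a block, from Cy3 alone and when both LPS-G0 arrays with conflicting labels were left out, and 2 with array weights; without single arrays it ranged from 0 to 2. On G2 it ranged from 0 to 1 without single arrays. The cause was not tested.

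Signs turned only in values near 0. For Tlr6 and LPS over the 3 diets the value was -0.01 with normexp and loess and from Cy3 alone, -0.07 with array weights and -0.04 without the arrays with conflicting labels. For LPS on G1 minus G0, Tlr2 was 0.04 with array weights and 0 without those arrays, and Tlr6 was 0 with normexp and loess, 0.01 with array weights and 0.08 without those arrays. Without single arrays, LPS-G0 vs. C-G0 ranged from -0.2 to 0.03 for Tlr2 and -0.17 to 0.14 for Tlr6, LPS-G1 vs. C-G1 from -0.14 to 0.02 for Tlr6, LPS-G2 vs. C-G2 from -0.01 to 0.2 for Tlr2 and -0.03 to 0.2 for Tlr6, and LPS over diets from -0.05 to 0.05 for Tlr6. The difference of LPS on G1 minus G0 ranged from -0.21 to 0.02 for Tlr2 and -0.21 to 0.1 for Tlr6, and that on G2 from -0.05 to 0.26 for Tlr6.

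Same-numbered arrays were not treated as pairs, since in no comparison did all 4 correlations of deviations pass 0.1, although 3 of 4 did in C-G2 vs. C-G0, LPS-G1 vs. C-G1 and LPS-G2 vs. C-G2. With the replicate block the count on G1 became 2, as Tlr6 reached an adjusted p of 0.0423, and no other count changed. Averaging all probes of a gene was not run, since Tlr2 and Tlr6 have 1 probe each. For the other receptors, signal over background is the limit.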

Other observations

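Tlr13, a receptor of bacterial ribosomal RNA that is outside the 9 genes, was well above background on 24 of 24 arrays with its brighter probe, while its other probe was so on 3 of 24. Its log2 ratios were -1.36, -0.15, -0.19 and -0.3 in C-G0, 0.1, 0.03, 0.04 and -0.15 in C-G1, and -0.12, 0.5, 0.16 and 0.47 in C-G2. They were -0.57, -0.56, -0.43 and -0.25 in LPS-G0, -0.13, -0.27, -0.28 and -0.44 in LPS-G1, and 0.27, -0.04, -0.02 and -0.02 in LPS-G2. Every rat of LPS-G2 lay above every rat of LPS-G0, every rat of C-G2 above every rat of C-G0, and every rat of C-G1 above every rat of C-G0, the nearest values both rounding to -0.15. Groups separated fully in this direction for 2.81%, 1.34% and 3.07% of all probes in these 3 comparisons. In limma, LPS-G2 vs. LPS-G0 was 0.5 (SE 0.21, adjusted p = 0.597), C-G2 vs. C-G0 0.76 (SE 0.2, adjusted p = 0.174) and C-G1 vs. C-G0 0.51 (SE 0.2, adjusted p = 0.14). In LPS-G1 vs. LPS-G0, where the groups overlapped, it was 0.17 (SE 0.21, adjusted p = 0.611). Without C-G0 replicate 1, the lowest array, C-G2 vs. C-G0 was 0.47 (adjusted p = 0.26) and C-G1 vs. C-G0 0.22 (adjusted p = 0.546), and without C-G0 replicate 4, C-G2 vs. C-G0 was called, at 0.82 (adjusted p = 0.0425). The dimmer Tlr13 probe had its highest saline mean in C-G0, opposite to the brighter probe, with 0.6 in C-G0, -0.3 in C-G1 and 0.07 in C-G2. After LPS its mean was lowest on G0, as for the brighter probe, with -0.62 on G0, 0.13 on G1 and -0.14 on G2.

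Over the 24 arrays Tlr13 correlated with Tlr2 at r = 0.739 (permutation p = 5e-05, adjusted 7.5e-05) and rho = 0.632, and with Tlr6 at r = 0.645 (permutation p = 0.00062) and rho = 0.51. On slide 3 these r were 0.275 and -0.111, so the relation did not hold within that slide, and without the 2 arrays farthest from the median they were 0.567 and 0.374. From Cy3 alone they were 0.464 and 0.455, and in the Cy5 reference alone -0.665 and -0.422. Tlr4, the receptor of lipopolysaccharide, was well above background on 1 of 24 arrays, Tlr12 on 2 and Tlr11 on 0.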
